A study of Mus musculus with 16 samples.

Results

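The nuclear methionine tRNAs of the mouse comprised 11 entries in the tRNA count tables, 4 of initiator tRNA (tRNA-iMet-CAT-1 to tRNA-iMet-CAT-4) and 7 of elongator tRNA (tRNA-Met-CAT-1 to tRNA-Met-CAT-7). They were chosen by name alone, from the amino acid and the CAT anticodon in the entry name, leaving out the mitochondrial methionine tRNA and the entries named tRX. All 11 were present in the fibroblast table of 819 entries and in the heart table of 821 entries, which together name 826 different entries. A running number separates isodecoders, which are tRNAs that share an anticodon and differ elsewhere in sequence.

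Cytosolic translation uses a pair of methionine tRNAs with the same anticodon. The initiator is bound by initiation factor eIF2 and is placed at the start codon by the small ribosomal subunit, whereas elongators are delivered by elongation factor eEF1A and decode AUG codons inside the reading frame. Both are charged by the same cytosolic methionyl-tRNA synthetase, while the mitochondrial ribosome uses 1 methionine tRNA of its own, encoded in mitochondrial DNA, for starting and for elongating.

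The libraries came from a mouse study that used base editing against a pathogenic mutation in mitochondrial tRNA-Ala, and were made by mim-tRNAseq, which reads through modified bases to sequence whole tRNAs. Mouse embryonic fibroblasts (MEFs) gave 8 libraries, 2 passages each of the lines MEF_Cl_1, MEF_Cl_2, MEF_Cl_3 and MEF_Ctrl_1, called passage 1 and passage 2 by the replicate number in the title, and the titles do not explain Cl or Ctrl. Hearts of the m.5024T mouse model gave the other 8 libraries, 1 mouse each: 4 mice titled AAV9-DdCBE, of which mouse 26 carried the mark 2X, mouse 25 the mark 5X and mice 17 and 18 the mark 10X, and 4 titled AAV9-GFP, of which mice 5 and 6 carried 5X and mice 14 and 19 carried 3X. The X marks are not explained in the labels, and the marks 2X and 5X among AAV9-DdCBE hearts rest on a single mouse each. AAV9 is a viral vector that reaches the heart, a DdCBE is an editing enzyme fused to DNA-binding domains that changes C to T in mitochondrial DNA, and GFP is a fluorescent protein used as a control. All 8 hearts therefore share the m.5024T model and an AAV9 vector, and no heart without a vector was analysed here. Because the MEF replicates are passages and not separate derivations of a line, p-values in the MEFs measure the spread between passages. Ages, sexes and doses were not in the labels used here.

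The MEF libraries held 1473330 to 4375975 counts and the hearts 1540287 to 3037178. Nuclear tRNAs made up 96.3% to 97.9% of the counts in the MEFs, and in the hearts 40.1% to 61.1% with AAV9-DdCBE and 56.7% to 62.6% with AAV9-GFP. The heart of mouse 17 (10X) stood apart with its nuclear share of 40.1%, the remainder being almost wholly mitochondrial tRNA. The tables hold tRNA entries only, so the fibroblast and heart labels could not be set against marker mRNAs, and no count per tRNA end was present from which charging could be read. In bulk tissue, fewer cells of a type and less RNA per cell cannot be told apart, and this holds for each heart value below.

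In the MEFs 1 initiator and a pair of elongators carried nearly all methionine tRNA. Levels are given in CPM, which are read counts scaled to a fixed library total after TMM, a scaling by trimmed means of ratios between libraries. The method reads whole tRNAs, and RefSeq lists all 16 nuclear methionine tRNA genes of the mouse at 72 or 73 bases, so counts of different entries were compared without a correction for length. tRNA-iMet-CAT-1 was the highest methionine entry in the MEFs, with 18553 and 17552 CPM in Cl_1, 16761 and 16217 in Cl_2, 15743 and 16099 in Cl_3, and 18577.5 and 17298.5 in Ctrl_1. tRNA-Met-CAT-1 came next and tRNA-Met-CAT-2 after it in each of the 8 libraries. tRNA-iMet-CAT-1 made up 90.7% ± 1.21 of initiator counts (SD, n = 8), and tRNA-iMet-CAT-3 9.25% ± 1.21. Of elongator counts, tRNA-Met-CAT-1 made up 54.8% ± 4.03, tRNA-Met-CAT-2 35.4% ± 4.63, tRNA-Met-CAT-3 7.45% ± 1.28 and tRNA-Met-CAT-4 2.23% ± 0.928. The other entries were minor: tRNA-Met-CAT-5 had 22.9 to 36.8 CPM, tRNA-iMet-CAT-2 11.2 to 19.8 CPM, and tRNA-Met-CAT-6 and tRNA-iMet-CAT-4 at most 26 and 16 reads in a library.

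Neighbours in this order were separated in every MEF library except one pair. tRNA-Met-CAT-3 exceeded tRNA-iMet-CAT-3 in 5 of 8 MEF libraries, with ratios of 0.578 to 1.44, and all 5 were Cl libraries. In Ctrl_1 tRNA-Met-CAT-3 was the lower of the pair (1359 and 1334 CPM, against 1977 and 1776). Passage 1 of Cl_1 was the only Cl library with that order (1461 against 2528 CPM). tRNA-Met-CAT-7 had 1 read, in passage 2 of Ctrl_1, and 0 in the other 15 libraries of both tables, where a count of 0 allows up to 3 reads, or 0.868 to 2.04 CPM of the library total.

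**Figure D1:**
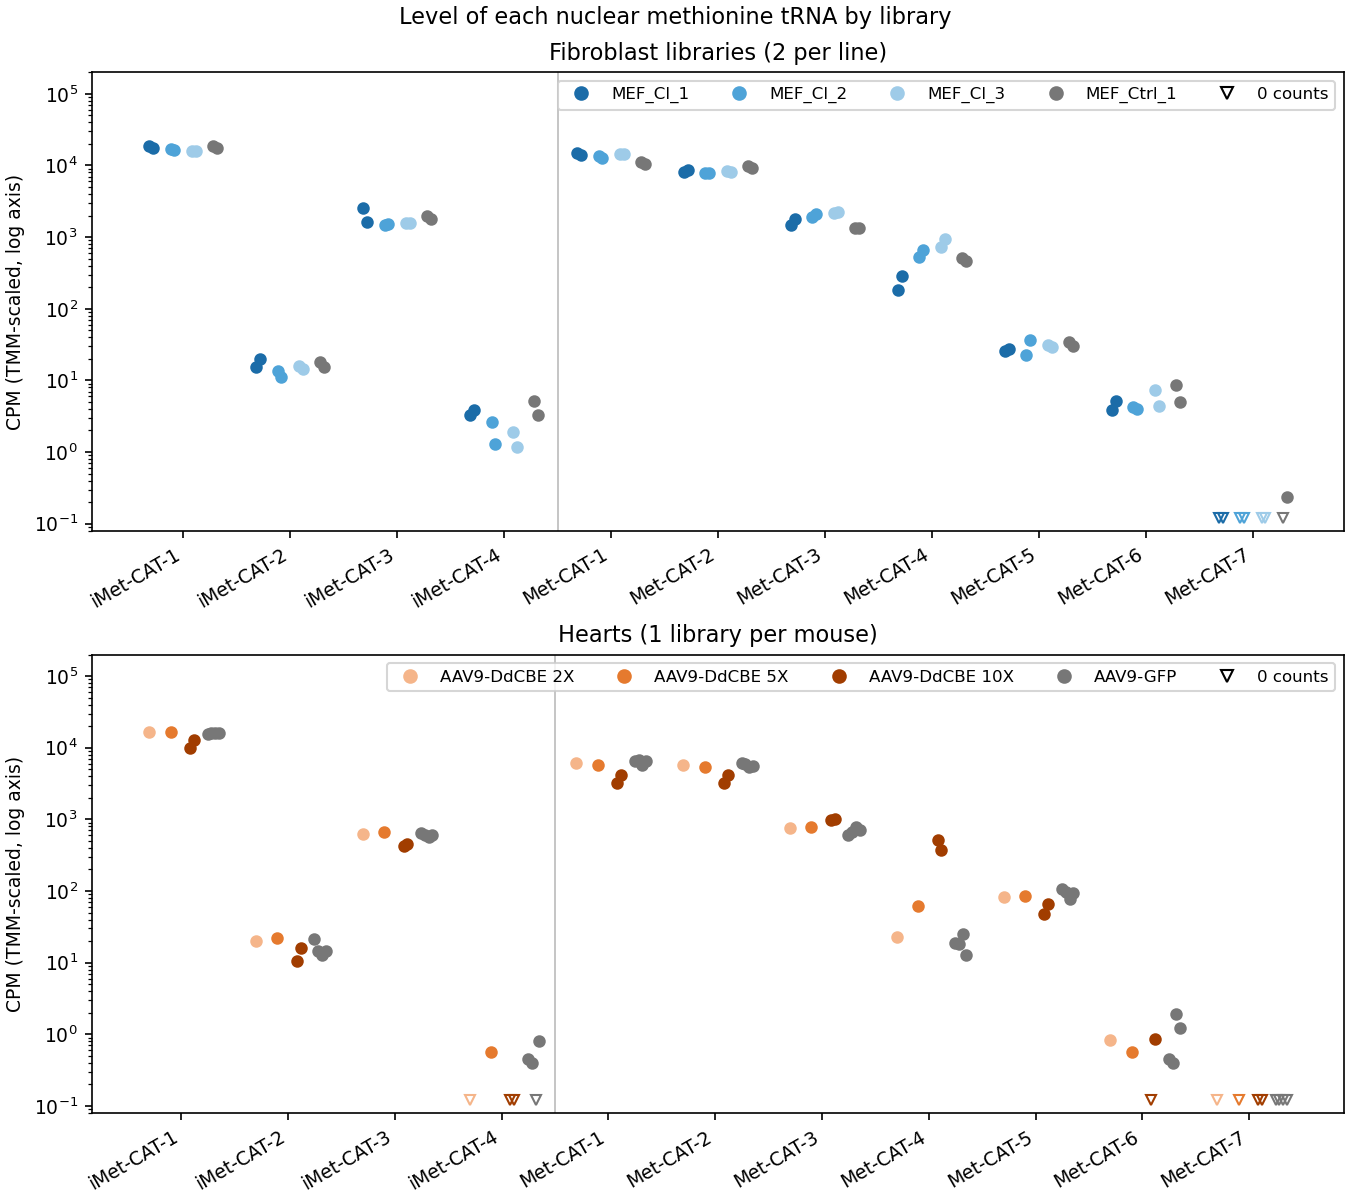
Level of each of the 11 nuclear methionine tRNAs in each library, as TMM-scaled CPM on a log axis, with MEFs above and hearts below; filled circles are single libraries and open triangles mark 0 counts. tRNA-iMet-CAT-1 was highest in every library, and the heart points of tRNA-Met-CAT-4 spread from 12.9 to 508 CPM.

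The same 3 entries led in the hearts. tRNA-iMet-CAT-1 averaged 14966 ± 2411 CPM over the 8 hearts (SD), against 5610 ± 1279 CPM for tRNA-Met-CAT-1 and 5187 ± 981 CPM for tRNA-Met-CAT-2. tRNA-Met-CAT-1 exceeded tRNA-Met-CAT-2 in 7 of 8 hearts, but by ratios of only 0.979 to 1.18, so the pair was not separated beyond its spread. tRNA-Met-CAT-3 exceeded tRNA-iMet-CAT-3 in 7 of 8 hearts, with ratios of 0.929 to 2.30. tRNA-Met-CAT-5 lay above tRNA-Met-CAT-4 in 6 of 8 hearts and below it in both hearts marked 10X, and tRNA-Met-CAT-4 lay above tRNA-iMet-CAT-2 in 6 of 8. tRNA-Met-CAT-6 had 0 to 3 reads, tRNA-iMet-CAT-4 0 to 2 and tRNA-Met-CAT-7 0 in all 8 hearts.

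Set side by side as CPM of the nuclear tRNA counts alone, the hearts had more initiator and fewer counts of the leading elongator than the MEFs; the tables were fitted separately and tissue differs from cultured cells in much else, so these levels were not tested. tRNA-iMet-CAT-1 had 23158 to 29473 such CPM in the hearts and 16651 to 18438 in the MEFs, ranges that do not overlap. tRNA-Met-CAT-1 had 7593 to 10676 in the hearts and 10579 to 15585 in the MEFs, ranges that meet only at their edges. tRNA-Met-CAT-5 had 112 to 167 in the hearts and 23.6 to 39.1 in the MEFs, and tRNA-iMet-CAT-3 had 936 to 1163 in the hearts and 1515 to 2513 in the MEFs. Neither pair of ranges overlaps. tRNA-iMet-CAT-2 had 22.6 to 39.0 in the hearts and 11.9 to 20.6 in the MEFs, also without overlap. The second elongator tRNA-Met-CAT-2 overlapped, with 7534 to 9522 in the hearts and 7992 to 9479 in the MEFs, as did tRNA-Met-CAT-3 and tRNA-Met-CAT-4. Trace entries were left aside. How many of all entries have ranges that do not overlap was not counted, so these separations may not be particular to methionine. Methionine tRNAs together held 4.30% to 5.20% of nuclear counts in the hearts and 4.06% to 4.70% in the MEFs.

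In the MEFs the elongator pool differed between the Cl lines and Ctrl_1 while the sum of initiator counts was not called. Of the 10 entries that passed the filter on low counts, tRNA-Met-CAT-7 being left out, 2 were higher and 2 lower in the mean of the Cl lines at an edgeR adjusted p of 0.05. Calls were common in this comparison: 48.3% of the 201 entries tested passed, 22.9% higher and 25.4% lower, so a count of 4 of 10 is near the background. The members' median log2 difference was -0.14, beside -0.0008 over all entries tested. Among the other nuclear entries, 44 of 165 were higher and 36 lower. With each line summed to 1 sample, the log2 differences were 0.37 for tRNA-Met-CAT-1 and 0.51 for tRNA-Met-CAT-3. Ctrl_1 is then a single sample whose own spread is not measured, so these stand as values only; edgeR, taking the spread from the Cl lines, called 0 of the 10 members.

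tRNA-Met-CAT-1, the leading elongator, had 14719 and 14154 CPM in Cl_1, 13405 and 12663 in Cl_2 and 14494 and 14378 in Cl_3, against 11079 and 10616 in Ctrl_1. Every Cl library lay above both Ctrl_1 libraries. The log2 difference was 0.36 (SE 0.048, edgeR adjusted p = 0.00103), or 1.29-fold. tRNA-Met-CAT-3, a lesser elongator, had 1461 and 1807 CPM in Cl_1, 1913 and 2094 in Cl_2 and 2179 and 2243 in Cl_3, against 1359 and 1334 in Ctrl_1. Again no Cl library reached down to Ctrl_1, and Cl_1 lay nearest to it. Its log2 difference was 0.52 (SE 0.098, edgeR adjusted p = 0.00406), or 1.44-fold.

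tRNA-Met-CAT-2, the second elongator, moved the other way. It had 8042 and 8586 CPM in Cl_1, 7788 and 7899 in Cl_2 and 8260 and 8097 in Cl_3, against 9768 and 9244.5 in Ctrl_1. All 6 Cl libraries lay below both Ctrl_1 libraries, and the log2 difference was -0.23 (SE 0.050, edgeR adjusted p = 0.00726). That call was lost without passage 1 of Ctrl_1 (log2 difference -0.19, edgeR adjusted p = 0.0750) and with library totals in place of TMM (-0.13, adjusted p = 0.0854). tRNA-iMet-CAT-4, a trace initiator entry, was also lower, with 11 and 9 reads in Cl_1, 8 and 2 in Cl_2 and 6 and 4 in Cl_3, against 16 and 14 in Ctrl_1. Its log2 difference of -0.87 (SE 0.30, edgeR adjusted p = 0.0466) passed narrowly, and it did not pass when any of 6 of the 8 libraries was left out, with library totals, without the filter or under DESeq2 (adjusted p = 0.506).

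The opposite shifts of the leading pair changed the make-up of the elongator pool. The ratio of tRNA-Met-CAT-1 to tRNA-Met-CAT-2 counts was 1.83 and 1.65 in Cl_1, 1.72 and 1.603 in Cl_2 and 1.75 and 1.78 in Cl_3, against 1.13 and 1.15 in Ctrl_1. tRNA-Met-CAT-1 held 56.7% ± 1.97 of elongator counts in the Cl lines (SD, n = 6) and 48.8% ± 0.166 in Ctrl_1 (n = 2). tRNA-Met-CAT-2 held 33.0% ± 1.09 in the Cl lines and 42.8% ± 0.231 in Ctrl_1. The handling of reads that fit near-identical isodecoders is not given in the sources used here, so a shift between entries of 1 class may include reads assigned differently. Sums over a class do not change where such reads only move between its entries. Whether some of these reads were dropped is not given either, and dropped reads would change the sums.

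**Figure D2:**
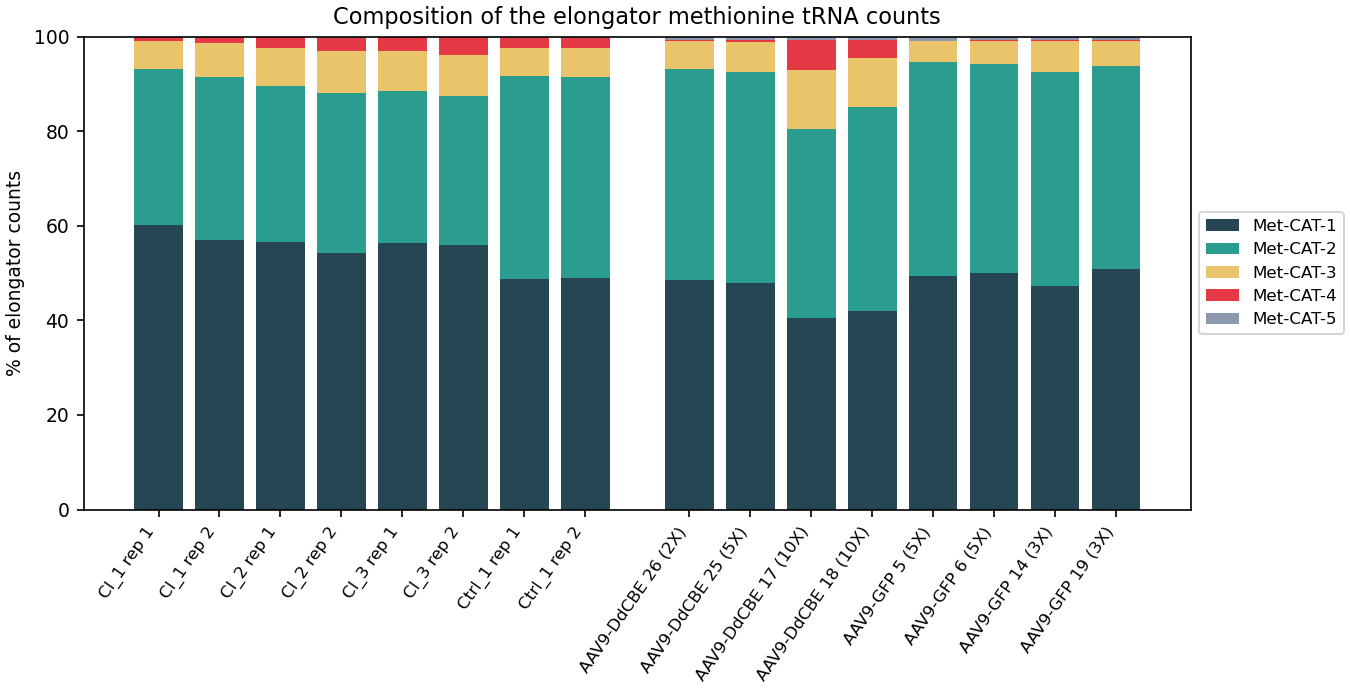
Share of each elongator entry in the elongator methionine tRNA counts of each library, in percent, as stacked bars; MEFs stand left and hearts right. tRNA-Met-CAT-1 held more of the pool in the 6 Cl libraries (56.7% on average) than in Ctrl_1 (48.8%), and tRNA-Met-CAT-4 reached 6.38% and 3.86% in the hearts marked 10X.

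The elongator sum rose in the Cl lines and the initiator sum was not called. Counts were summed over amino acid and anticodon with the initiator kept apart, and 74 such classes were tested. The log2 difference of elongator counts was 0.26 (SE 0.043, edgeR adjusted p = 0.00167, 1.20-fold), where 39.2% of the classes passed, 14.9% as higher and 24.3% as lower. The initiator sum differed by 0.017 (SE 0.051, edgeR adjusted p = 0.821). The elongator call held when any 1 library was left out, with log2 differences of 0.23 to 0.27. With each line summed to 1 sample it was 0.25, given as a value only because the spread of Ctrl_1 is then not measured. Against the same Ctrl_1 libraries, the elongator difference was 0.22 in Cl_1 (adjusted p = 0.0132), 0.19 in Cl_2 (adjusted p = 0.0291) and 0.38 in Cl_3 (adjusted p = 0.00127), where edgeR called 23.0% of classes in Cl_1 (9.46% higher), 35.1% in Cl_2 (16.2% higher) and 27.0% in Cl_3 (12.2% higher). The Cl_3 call held when any library was left out, the Cl_1 call was lost without either Ctrl_1 library, and the Cl_2 call was lost without any single library of Cl_2, Cl_3 or Ctrl_1. A test of differences among the 3 Cl lines did not call the elongator sum (edgeR adjusted p = 0.150, 1.35% of classes called).

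tRNA-Met-CAT-4 was the member on which the Cl lines disagreed most clearly, by the smallest p of the members in the edgeR F test. It had 185 and 288 CPM in Cl_1, 531 and 659 in Cl_2 and 726 and 937 in Cl_3, against 505 and 469 in Ctrl_1. Both Cl_1 libraries lay below Ctrl_1 and the other 4 Cl libraries lay above it, in the order Cl_1, Cl_2, Cl_3. Among the 3 Cl lines it was the single member of 10 that was called (edgeR F test, adjusted p = 0.00584, 24.4% of all entries called), and the log2 difference of its mean over the Cl lines from Ctrl_1 was 0.0052 (SE 0.19, edgeR adjusted p = 0.989). In Cl_1 it was lower, its log2 difference being -1.04 (SE 0.24, edgeR adjusted p = 0.0127), a call lost without passage 1 of Ctrl_1 (-0.99, adjusted p = 0.0546). In Cl_3 it was higher by 0.77 (SE 0.23, edgeR adjusted p = 0.0280), a call lost without passage 2 of Cl_3 (0.58, adjusted p = 0.152), without passage 1 of Ctrl_1 (0.83, adjusted p = 0.0845) and without passage 2 of Ctrl_1 (0.72, adjusted p = 0.102). In Cl_2 the difference of 0.29 was not called (edgeR adjusted p = 0.370). Among the Cl lines tRNA-Met-CAT-3 lay near the threshold (edgeR F test, adjusted p = 0.0649). The number of members called there was 4 under DESeq2 and 3 without the filter. It was 2 among nuclear entries only and 2 with passage numbers as a block. The shares of all entries called in these settings are not given.

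Line by line, against shared Ctrl_1 libraries, the leading elongator was higher in each. In Cl_1 3 of 10 members passed, where 33.8% of all entries passed, 14.9% higher and 18.9% lower: tRNA-Met-CAT-1 was higher by 0.41 (edgeR adjusted p = 0.00177), and tRNA-Met-CAT-2 (-0.19, adjusted p = 0.0464) and tRNA-Met-CAT-4 were lower. The tRNA-Met-CAT-2 call in Cl_1 was lost when any of 7 of the 8 libraries was left out (adjusted p of 0.0650 to 0.232), with library totals (-0.13, adjusted p = 0.166) and without the filter (adjusted p = 0.177). In Cl_2 3 of 10 passed, where 46.3% of all entries did, 25.9% higher and 20.4% lower: tRNA-Met-CAT-1 (0.26, edgeR adjusted p = 0.00928) and tRNA-Met-CAT-3 (0.57, adjusted p = 0.00753) were higher and tRNA-Met-CAT-2 was lower (-0.28, adjusted p = 0.0100). There the tRNA-Met-CAT-1 call was lost without passage 1 of Cl_2 (adjusted p = 0.0597) or passage 2 of Ctrl_1 (adjusted p = 0.0554). The tRNA-Met-CAT-2 call was lost without passage 1 of Cl_2 (adjusted p = 0.0579) or passage 1 of Ctrl_1 (adjusted p = 0.0632) and with library totals (adjusted p = 0.0722). In Cl_3 6 of 10 passed, where 50.7% of all entries did, 26.4% higher and 24.4% lower. tRNA-Met-CAT-1 (0.41, edgeR adjusted p = 0.00146), tRNA-Met-CAT-3 (0.72, adjusted p = 0.00254) and tRNA-Met-CAT-4 were higher there, and tRNA-Met-CAT-2 (-0.22, adjusted p = 0.0221), tRNA-iMet-CAT-1 (-0.17, adjusted p = 0.0478) and tRNA-iMet-CAT-4 (-1.44, adjusted p = 0.0221) were lower. That of tRNA-iMet-CAT-1 was lost when any of 6 of the 8 libraries was left out (adjusted p of 0.0521 to 0.263), with library totals (-0.032, adjusted p = 0.616) and without the filter (adjusted p = 0.123). That of tRNA-iMet-CAT-4 was lost under DESeq2 (adjusted p = 0.364), without passage 2 of Cl_3 (adjusted p = 0.128) and without passage 1 of Ctrl_1 (adjusted p = 0.117). That of tRNA-Met-CAT-2 was lost without either passage of Cl_3 or passage 1 of Ctrl_1 (adjusted p of 0.0960 to 0.122), with library totals (adjusted p = 0.358) and without the filter (adjusted p = 0.101). The count was 1 in Cl_1 without passage 1 of Ctrl_1, 1 in Cl_2 without its own passage 1, and 2 in Cl_3 without its own passage 2 or without passage 1 of Ctrl_1.

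With TMM over all entries, the trace entry was the only initiator entry called when the Cl lines were averaged, and the leading initiator was called or not according to the scaling. tRNA-iMet-CAT-1 averaged 16821 ± 1057 CPM in the Cl lines (n = 6) and 17938 ± 904 CPM in Ctrl_1 (SD, n = 2), and the ranges overlap. Its difference on the log2 scale was -0.095 (SE 0.049, edgeR adjusted p = 0.152). Among nuclear entries only it was called lower (-0.16, edgeR adjusted p = 0.0225), as it was in Cl_2 (-0.21, adjusted p = 0.0216), whereas with library totals it was 0.0080 (adjusted p = 0.879). tRNA-iMet-CAT-3 had 2528 and 1637 CPM in Cl_1, 1468 and 1518 in Cl_2 and 1592 and 1560 in Cl_3, against 1977 and 1776 in Ctrl_1. Passage 1 of Cl_1 was the highest of all 8 libraries and the other 5 Cl libraries lay below both Ctrl_1 libraries, with a log2 difference of -0.14 (edgeR adjusted p = 0.476) that became -0.26 (adjusted p = 0.0286) without that passage. Its ratio to tRNA-iMet-CAT-1 was 0.136 in that passage and 0.0876 to 0.106 in the other 7 MEF libraries. tRNA-iMet-CAT-2 (-0.14, adjusted p = 0.551), tRNA-Met-CAT-5 (-0.18, adjusted p = 0.482) and tRNA-Met-CAT-6 (-0.48, adjusted p = 0.226) were not called by edgeR.

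The initiator to elongator ratio was 0.863 and 0.773 in Cl_1, 0.771 and 0.760 in Cl_2 and 0.675 and 0.688 in Cl_3, against 0.904 and 0.880 in Ctrl_1. All 6 Cl values lay below both Ctrl_1 values, with passage 1 of Cl_1 nearest. Means were 0.755 ± 0.0681 in the Cl lines (n = 6) and 0.892 ± 0.0173 in Ctrl_1 (SD, n = 2). The difference of log2 ratios was -0.25 (exact permutation test, two-sided, p = 0.0714, 0.214 after Benjamini-Hochberg adjustment over 6 such values). The elongator share of nuclear counts was 2.57% ± 0.151 in the Cl lines and 2.19% ± 0.0323 in Ctrl_1. Its p of 0.0357 in the exact permutation test (adjusted 0.214) is the smallest that 28 splits of 6 against 2 libraries permit. The initiator share was 1.94% ± 0.0962 in the Cl lines and 1.95% ± 0.0666 in Ctrl_1, with p = 0.857 in the same exact permutation test. None of these passes after adjustment, and with the 4 lines as units no p under 0.25 could be reached.

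**Figure D3:**
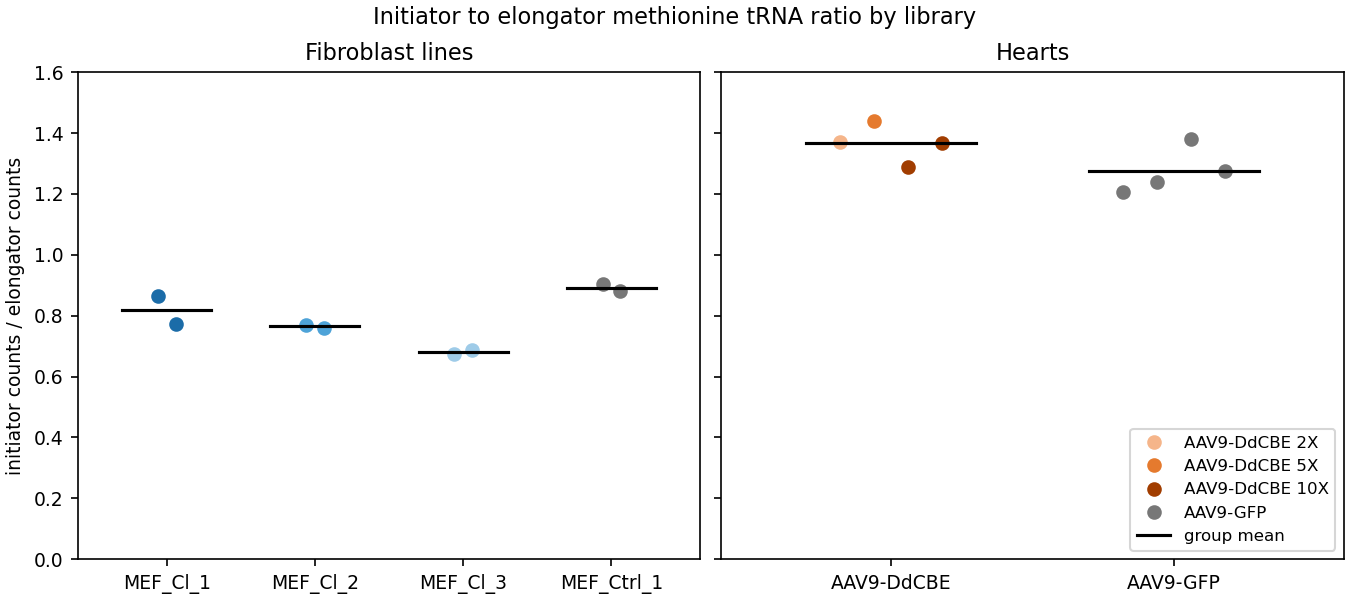
Ratio of summed initiator to summed elongator counts, without unit, for each MEF library and each heart; points are libraries and black lines are group means. The 6 Cl libraries lie between 0.675 and 0.863, below Ctrl_1 at 0.880 and 0.904, and the hearts lie between 1.21 and 1.44 with overlapping groups.

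In the hearts the same ratio was above 1 throughout. It was 1.37 in mouse 26 (2X), 1.44 in mouse 25 (5X) and 1.29 and 1.37 in mice 17 and 18 (10X), all AAV9-DdCBE, against 1.21, 1.24, 1.38 and 1.28 in the AAV9-GFP mice 5, 6, 14 and 19. The groups overlap, with 1 AAV9-GFP heart above both hearts marked 10X. Means were 1.37 ± 0.0623 with AAV9-DdCBE and 1.28 ± 0.0752 with AAV9-GFP (SD, n = 4 each). The difference of log2 ratios was 0.10 (exact permutation test, two-sided, p = 0.114, adjusted 0.214), where 70 splits allow a smallest p of 0.0286. The initiator share of nuclear counts was 2.76% ± 0.267 with AAV9-DdCBE and 2.68% ± 0.149 with AAV9-GFP (exact permutation p = 0.657), and the elongator share was 2.01% ± 0.106 with AAV9-DdCBE and 2.10% ± 0.0115 with AAV9-GFP (exact permutation p = 0.143, adjusted 0.214).

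Between the 4 AAV9-DdCBE and the 4 AAV9-GFP hearts, edgeR called 0 of the 8 methionine entries that passed the filter and 0.0% of all 180 entries. The entries left out by the filter were tRNA-Met-CAT-6, tRNA-Met-CAT-7 and tRNA-iMet-CAT-4. At an unadjusted p under 0.05 there were 35 entries, 1 of them a member, and DESeq2 called 27, again with 1 member. The members' median log2 difference was -0.16, beside -0.10 over all entries tested. The class sums gave 0 calls among 70 classes as well (0.0%, with 3 classes at an unadjusted p under 0.05 and 2 called by DESeq2, neither of them methionine), with differences of 0.012 for the initiator (edgeR adjusted p = 0.975) and -0.093 for the elongator (edgeR adjusted p = 0.806).

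The single member behind these counts was tRNA-Met-CAT-4. It had 22.7 CPM in mouse 26 (2X), 61.1 in mouse 25 (5X) and 508 and 378 in mice 17 and 18 (10X), against 18.6, 18.5, 25.1 and 12.9 CPM in the AAV9-GFP mice 5, 6, 14 and 19. Both hearts marked 10X and the heart marked 5X lay above all AAV9-GFP hearts, while the heart marked 2X lay inside their range. Averaged, it had 243 ± 238 CPM with AAV9-DdCBE and 18.8 ± 5.02 CPM with AAV9-GFP (SD, n = 4 each). Its log2 difference was 3.69 (SE 0.88, edgeR adjusted p = 0.0775). With 1 heart left out the difference ranged over 3.04 to 4.23, the low end being without mouse 17 (adjusted p = 0.337). The p passed without mouse 25 (4.18, adjusted p = 0.0294) or without mouse 26 (4.23, adjusted p = 0.0104), under DESeq2 (3.87, adjusted p = 4.85e-04) and with library totals (3.76, adjusted p = 0.0429). Without both hearts marked 10X the difference was 1.16 (edgeR adjusted p = 0.894). Among hearts marked 5X, which are 1 of AAV9-DdCBE and 2 of AAV9-GFP, it was 1.71, given as a value only because the single AAV9-DdCBE heart has no measured spread.

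As a share of elongator counts, tRNA-Met-CAT-4 stood at 0.179% in mouse 26 (95% Wilson interval 0.137% to 0.233%) and 0.502% in mouse 25 (0.416% to 0.607%). It stood at 6.38% in mouse 17 (6.07% to 6.70%) and 3.86% in mouse 18 (3.62% to 4.12%), against 0.0988% to 0.210% in the 4 AAV9-GFP hearts. Behind these shares were 54, 107, 1459 and 887 reads in mice 26, 25, 17 and 18, against 32 to 47 reads in the AAV9-GFP hearts. The intervals cover counting error only, since reads copied by PCR are not independent molecules.

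Set apart by the mark 10X, the AAV9-DdCBE hearts of mice 17 and 18 differed from AAV9-GFP in 6 of 8 methionine entries, 2 higher and 4 lower. This comparison shares the AAV9-GFP hearts with the one above, and no AAV9-GFP heart carried the mark 10X, so the mark and the editor cannot be told apart in it. The split by mark was chosen with earlier results of these data known, so its p-values are not independent tests. The background was again large, with 51.7% of the 180 entries called, 23.9% higher and 27.8% lower. The members' median log2 difference was -0.47, beside -0.23 over all entries tested, and 39 of 150 other nuclear entries were higher and 46 lower. These hearts were also those with the lowest nuclear shares of the AAV9-DdCBE group, 40.1% in mouse 17 and 55.5% in mouse 18, against 56.7% to 62.6% in AAV9-GFP, and the part of that shift in the values was not tested. The split of calls depended on the scaling: 43 entries were higher and 50 lower with TMM, 52 and 23 under DESeq2, 48 and 9 with library totals, and 49 and 18 among nuclear entries only, where the median of all entries moved to -0.04.

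tRNA-Met-CAT-4 rose in the hearts marked 10X, averaging 443 ± 91.6 CPM there (n = 2) and 18.8 ± 5.02 CPM in AAV9-GFP (SD, n = 4). The log2 difference was 4.57 (SE 0.29, edgeR adjusted p = 7.12e-06), 23.8-fold, and 4.35 to 4.77 when any heart was left out. That p comes from a split chosen with earlier results of these data known. Over all AAV9-DdCBE hearts the edgeR adjusted p of tRNA-Met-CAT-4 was 0.0775. tRNA-Met-CAT-3 had 991 and 1015 CPM in the hearts marked 10X, against 605, 663, 777 and 709 in AAV9-GFP, without overlap. Its log2 difference was 0.54 (SE 0.17, edgeR adjusted p = 0.0271), a call lost without mouse 17, 18, 6 or 19 (adjusted p of 0.0521 to 0.0839).

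The leading elongators fell in the hearts marked 10X. tRNA-Met-CAT-1 had 3220 and 4122 CPM there, against 6626, 6664, 5648 and 6621 in AAV9-GFP, and its log2 difference was -0.80 (SE 0.16, edgeR adjusted p = 0.00468). tRNA-Met-CAT-2 had 3195 and 4210.4 CPM there, against 6078, 5906, 5418 and 5587 in AAV9-GFP, and its log2 difference was -0.63 (SE 0.16, edgeR adjusted p = 0.0131). In both, no heart marked 10X reached the AAV9-GFP range. Relative to the median of all entries the differences were -0.57 for tRNA-Met-CAT-1 and -0.41 for tRNA-Met-CAT-2. Without the filter tRNA-Met-CAT-2 was not called (log2 difference -0.42, edgeR adjusted p = 0.113). The tRNA-Met-CAT-1 call was lost without mouse 5 (-0.60, adjusted p = 0.0517) or mouse 6 (-0.60, adjusted p = 0.0682), and the tRNA-Met-CAT-2 call was lost without mouse 17, 25, 26, 5 or 6 (adjusted p of 0.0513 to 0.159) and with library totals (adjusted p = 0.119).

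The minor elongator tRNA-Met-CAT-5 had 47.4 and 66.1 CPM in the hearts marked 10X, against 106, 95.6, 77.4 and 93.3 in AAV9-GFP, its log2 difference being -0.72 (SE 0.26, edgeR adjusted p = 0.0447). The leading initiator tRNA-iMet-CAT-1 had 9822 and 12917 CPM in the hearts marked 10X, against 15528, 15925, 15898 and 16008 in AAV9-GFP, its log2 difference being -0.48 (SE 0.17, edgeR adjusted p = 0.0445). For both, the hearts marked 10X lay below every AAV9-GFP heart in these CPM. As CPM of nuclear counts alone, tRNA-iMet-CAT-1 had 23158 and 26333 in mice 17 and 18, against 24325 to 27862 in AAV9-GFP. Mouse 18 lay inside that range. tRNA-Met-CAT-5 had 111.7 and 134.8 such CPM, against 135.6 to 166.7. Neither call held under DESeq2 (adjusted p of 0.0781 and 0.115), with library totals, without the filter, or among nuclear entries only. Both were also lost without mouse 17, 25, 26, 5, 6 or 19 (edgeR adjusted p of 0.0803 to 0.358). Relative to the median of all entries the difference was -0.49 for tRNA-Met-CAT-5 and -0.25 for tRNA-iMet-CAT-1. tRNA-iMet-CAT-3 (-0.45, adjusted p = 0.0547) and tRNA-iMet-CAT-2 (-0.26, adjusted p = 0.5004) were not called by edgeR. Over the hearts left out in turn, the number of members called ranged over 1 to 7: it was 1 without mouse 6, 2 without mouse 17 or 5, and 3 without mouse 25, 26 or 19.

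Within AAV9-DdCBE, hearts marked 10X against those marked 5X and 2X gave 3 of 8 calls, where 31.1% of all entries passed, 20.6% higher and 10.6% lower. Over all entries the calls split into 37 higher and 19 lower with TMM, 49 and 10 under DESeq2, 39 and 0 with library totals, and 44 and 9 among nuclear entries only. In that fit 5X and 2X are 1 heart each, so the spread between those hearts does not enter any call of this comparison. The calls take their spread from the 10X and AAV9-GFP hearts, and the differences below are given as values only. tRNA-Met-CAT-4 averaged 443 ± 91.6 CPM at 10X and 41.9 ± 27.1 CPM at 5X and 2X (SD, n = 2 each). Its log2 difference was 3.57. It was 3.04 to 4.44 when any heart was left out, the low end being without mouse 26 and the high end without mouse 25. tRNA-Met-CAT-1 (-0.71) and tRNA-Met-CAT-2 (-0.58) were lower. Both calls were lost without mouse 17, 25, 26, 5 or 6, with library totals and without the filter, and that of tRNA-Met-CAT-2 also without mouse 19. The members called also changed while the count stayed the same. Under DESeq2 and among nuclear entries only (-0.31), tRNA-Met-CAT-2 was lost. tRNA-Met-CAT-3 was called higher in both (0.55 under DESeq2 and 0.67 among nuclear entries only). Without mouse 18 or mouse 14 the count was 5.

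The summed classes did not follow the single entries past the threshold. In the hearts marked 10X against AAV9-GFP the elongator sum differed by -0.18 (SE 0.069, edgeR adjusted p = 0.188) and the initiator sum by -0.12 (SE 0.084, adjusted p = 0.464), where 0.0% of 70 classes were called, 15 had an unadjusted p under 0.05 and DESeq2 called 11 higher and 2 lower, neither methionine class among them. Against 5X and 2X, which are 1 heart each in the fit, the differences were -0.17 for the elongator and -0.26 for the initiator, given as values only. The ratio of tRNA-Met-CAT-1 to tRNA-Met-CAT-2 counts was near 1 in every heart, at 1.09 in mouse 26, 1.07 in mouse 25, 1.01 in mouse 17 and 0.979 in mouse 18, against 1.04 to 1.18 in AAV9-GFP. tRNA-iMet-CAT-3 stayed at 0.0355 to 0.0439 of tRNA-iMet-CAT-1 across the 8 hearts.

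**Figure D4:**
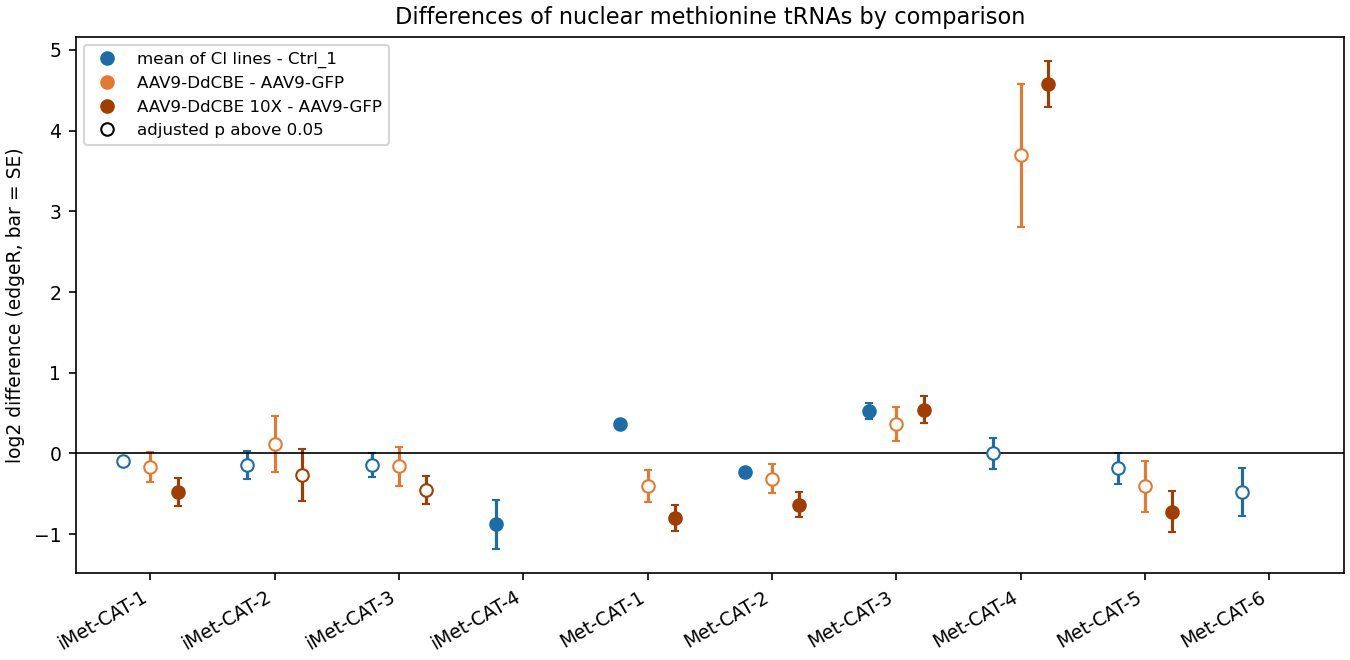
Log2 differences of the methionine entries that passed the filter (edgeR, bars show SE) in the mean of the Cl lines minus Ctrl_1, AAV9-DdCBE minus AAV9-GFP and 10X AAV9-DdCBE minus AAV9-GFP; open circles have an adjusted p above 0.05. tRNA-Met-CAT-4 stands at 4.57 in the hearts marked 10X and at 3.69 over all AAV9-DdCBE hearts, and the other entries lie between -0.87 and 0.54.

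The entries whose pattern over the 8 hearts was most like that of tRNA-Met-CAT-4, by Pearson r of log2 CPM among 172 non-member entries, were tRNA-Ala-AGC-10 (r = 0.995), tRNA-Cys-GCA-4 (r = 0.993) and tRNA-Gly-CCC-2 (r = 0.992), tRNAs for alanine, cysteine and glycine. The median r over all entries was -0.39. These r describe 8 libraries that share groups, depth and scaling. tRNA-Cys-GCA-4 had 21.5 CPM in mouse 26, 50.2 in mouse 25 and 1115 and 510 CPM in mice 17 and 18, against 11.3 to 18.1 CPM in AAV9-GFP. tRNA-Gly-CCC-2 had 18.1, 50.2, 489 and 407 CPM in the same order of mice, against 10.9 to 11.8 CPM in AAV9-GFP. tRNA-Ala-AGC-10 had 43.4, 74.7, 480.5 and 339 CPM in those mice, against 32.2 to 41.3 CPM in AAV9-GFP. All 3 were highest in the hearts marked 10X, as tRNA-Met-CAT-4 was. This follows largely from choosing them by likeness to it over the same hearts. For the leading initiator in the hearts the nearest patterns were tRNA-Ser-GCT-2 (r = 0.992), tRNA-Ile-AAT-1 (0.982) and tRNA-Lys-CTT-3 (0.978), and for the leading elongator tRNA-Ser-TGA-1 (0.997), tRNA-Arg-CCT-4 (0.991) and tRNA-Leu-TAA-2 (0.9899). In the MEFs the nearest to tRNA-iMet-CAT-1 were tRNA-Ala-CGC-2 (r = 0.950), tRNA-Thr-CGT-1 (0.904) and tRNA-Leu-CAG-1 (0.877), and the nearest to tRNA-Met-CAT-1 were tRNA-Arg-ACG-2 (0.978), tRNA-Trp-CCA-2 (0.932) and tRNA-Ser-GCT-5 (0.923), among 191 non-member entries and over 8 libraries.

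**Figure D5:**
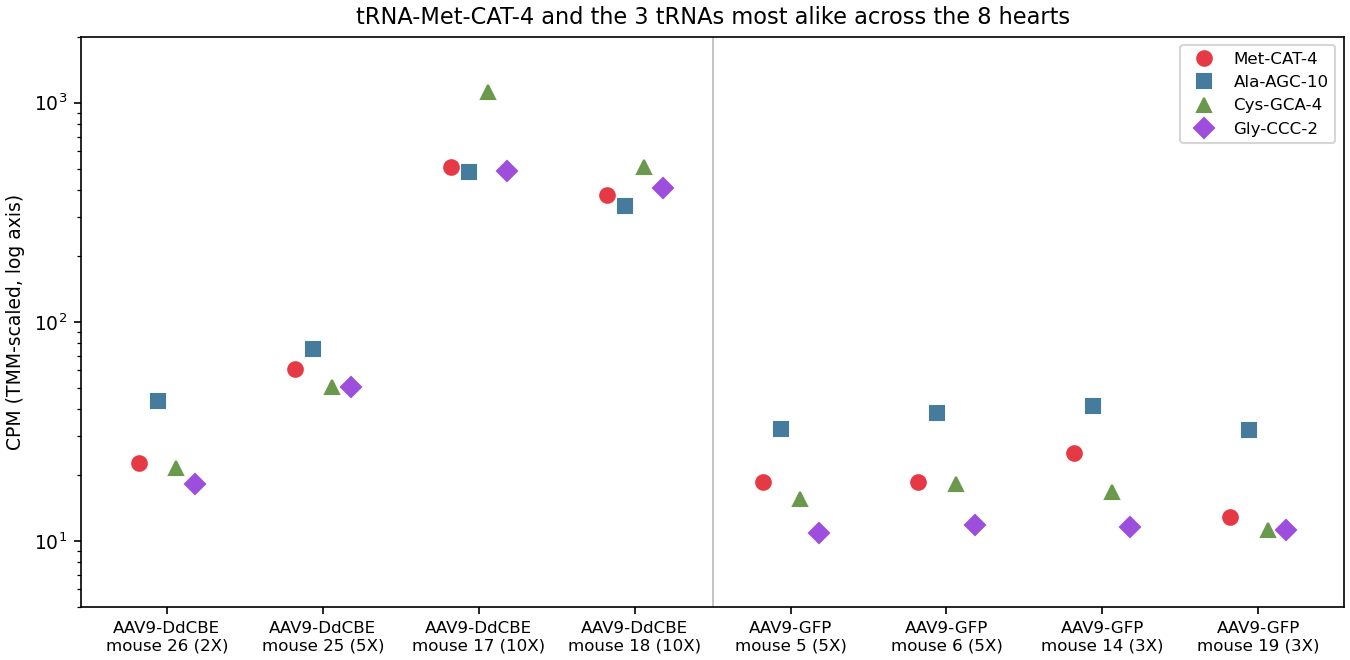
CPM of tRNA-Met-CAT-4 and of the 3 non-member entries most like it over the 8 hearts, on a log axis. Each of the 4 is highest in the hearts marked 10X, where tRNA-Met-CAT-4 had 508 and 378 CPM, against 12.9 to 25.1 CPM in AAV9-GFP. The 3 non-member entries were chosen by likeness over these same hearts, so the shared peak follows largely from that choice.

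The mitochondrial methionine tRNA, which shares its amino acid with the entries above and not its gene or its ribosome, took a larger share of methionine tRNA counts in the hearts than in the MEFs. It held 39.97% to 65.7% of all methionine tRNA counts in AAV9-DdCBE hearts and 40.03% to 48.8% in AAV9-GFP hearts, with mouse 17 highest, against 2.44% to 3.77% in the Cl lines and 4.72% and 4.92% in Ctrl_1. In the MEFs it was lower in the mean of the Cl lines, its log2 difference being -0.70 (SE 0.12, edgeR adjusted p = 0.00325). Of all entries tested there, 25.4% were called lower. By line, edgeR called it lower in Cl_2 (-0.90, adjusted p = 0.00456) and Cl_3 (-0.72, adjusted p = 0.00787). In Cl_1 it was not called (-0.48, adjusted p = 0.0516). In the hearts it differed by 0.12 between AAV9-DdCBE and AAV9-GFP (edgeR adjusted p = 0.702) and by 0.30 between hearts marked 10X and AAV9-GFP (adjusted p = 0.266).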

How the data were processed

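Raw, unnormalized read counts per tRNA entry were deposited by the authors in separate tables of MEFs and hearts. RNA was isolated in mild acid and treated by oxidation and beta-elimination before mim-tRNAseq, per the labels' protocols. The submitters' processing notes name cutadapt 3.5 and mm39. Which aligner and counter were used, and how reads shared between isodecoders were assigned, is not given in the sources used here. Each column was matched to a sample by its title.

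The test was the quasi-likelihood test of edgeR 4.0.16 (R 4.3.3) after TMM scaling and filterByExpr by group (minimum count 10, minimum total 15); p-values were adjusted by Benjamini-Hochberg over all entries tested, with a threshold of 0.05. The 8 MEF libraries entered 1 fit by line, and the 8 hearts 1 fit by treatment and another with 10X, 5X and 2X apart. The SE is the log2 difference divided by the square root of F. Class sums were fitted likewise. For ratios and shares the exact permutation test (two-sided) was used. Pattern likeness used log2 CPM with a prior count of 1. Alternatives were DESeq2 1.42.0, library totals, nuclear entries only, no filter, a passage block, summed lines and libraries left out; leaving out both hearts marked 10X was added after seeing the data. No replicate was a copy of another (chi-square over degrees of freedom 93.9 to 1781). The scripts were tested on simulated data. At 1473330 to 4375975 counts a library, 3 reads correspond to 0.686 to 2.04 CPM.

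The members, the lists and the split by X mark were chosen with earlier results of these data known. Every member is named by the rule, and beside each leading member the 3 most similar entries. No tRNA sequences were used here; RefSeq names of GRCm38.p6 matched 0 members and served only for gene lengths.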

Additional observations from a re-analysis of the deposited data

Results flagged for a closer look

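Among 44 groups of 4 hearts tested for a sample far from the others, 1 was found, where chance finds about 1 in 20: tRNA-Met-CAT-1 had 5648 CPM in mouse 14 (AAV9-GFP), below 6621 to 6664 CPM in the other 3 AAV9-GFP hearts, a gap of 0.958 of the group's range. The levels of tRNA-Met-CAT-4 differed among the 3 Cl lines in a direct test (edgeR F test, adjusted p = 0.00584), with Cl_1 lowest and Cl_3 highest. The cause of either was not tested.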

How the results depend on the processing

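Of 1292 values recomputed under alternatives, 1070 kept direction and side of the threshold, 109 lost and 20 gained a call (1 of these among hearts marked 5X), 41 changed sign, none of them called at first, and 52 counts of calls moved by over 1.5 times. Where the cause is not evident from the alternative's own construction, the cause was not tested.

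Counts of members called moved as follows. Where the share of all entries called in a setting is not given, a moved count may only follow a moved background. Among nuclear entries only, 40 of 179 entries were higher and 49 lower in the mean of the Cl lines. In the mean of the Cl lines, 4 as reported, the count was 1 with entries summed per class (of 2 classes), 2 with library totals and 0 with 3 summed lines against 1, where the spread of Ctrl_1 is not measured; among nuclear entries only it was 5, with tRNA-iMet-CAT-1 called lower. In Cl_1, Cl_2 and Cl_3 it was 1 each with class sums. Among the Cl lines, 1 as reported, it was 0 with class sums, 4 under DESeq2, 2 among nuclear entries only and 3 without the filter. The class sums of Cl_2 gave 0 calls among nuclear entries only and 0 without the filter, and those among the Cl lines gave 1 under DESeq2. In AAV9-DdCBE hearts, 0 as reported, it was 1 under DESeq2, where 27 of all 180 entries were called, and 1 with library totals, where 14 were. Among hearts marked 5X, 1 heart stands against 2 and its own spread is not measured, so no count is given. For 10X against AAV9-GFP, 6 as reported, it was 0 with class sums, 3 with library totals and 3 without the filter. With library totals 48 of all 180 entries were higher there and 9 lower. In the next comparison 5X and 2X are 1 heart each, and their spread is not measured. For 10X against 5X and 2X, 3 as reported, it was 0 with class sums, 1 with library totals and 1 without the filter.

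Signs changed in these uncalled values. With library totals, tRNA-iMet-CAT-1 in the mean of the Cl lines was 0.0080, tRNA-Met-CAT-5 in Cl_3 0.035, tRNA-iMet-CAT-2 in Cl_3 0.0096 and the heart initiator sum -0.075. Among nuclear entries only, tRNA-Met-CAT-4 in the mean of the Cl lines was -0.063, tRNA-iMet-CAT-1 in Cl_1 -0.033, the MEF initiator sum -0.042 and tRNA-iMet-CAT-2 in 10X hearts 0.0073. In AAV9-DdCBE hearts tRNA-iMet-CAT-1 was 0.090 and tRNA-iMet-CAT-3 0.075 among hearts marked 5X, and 0.086 and 0.089 without both hearts marked 10X, where the elongator sum was 0.0049. As a share of all counts the initiator difference was 0.0064 points in the MEFs and -0.0811 in the hearts.

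With passage numbers as a replicate block, 4 members were called in the mean of the Cl lines, 2 among the Cl lines, and tRNA-Met-CAT-4 in the mean stood at -0.020; no member's call against Ctrl_1 changed. The r of deviations between lines at the same passage number was 0.033 to 0.250, positive in every pair of lines. Whether passage numbers pair the libraries was not tested, and labels do not say that they mark a shared day.

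Where leaving out a library left a group with 1 sample, that sample was assumed to vary like the others. The share of all entries called is not given for each library left out, here or above, so these counts may follow the background. With 1 library left out, members called ranged over 2 to 4 in the mean of the Cl lines, 1 to 4 in Cl_1, 1 to 4 in Cl_2, 2 to 6 in Cl_3, 1 to 3 among the Cl lines, 0 to 1 in AAV9-DdCBE hearts, 1 to 7 for 10X against AAV9-GFP and 1 to 5 for 10X against 5X and 2X; class sums ranged over 0 to 1 in Cl_1 and 0 to 1 in Cl_2. The difference in initiator share ranged over -0.0612 to 0.0329 points (MEFs) and -0.0292 to 0.187 points (hearts), and that in the initiator sum over -0.037 to 0.042 (MEFs) and -0.043 to 0.10 (hearts). Uncalled members crossing 0 were tRNA-Met-CAT-4 in the mean of the Cl lines (-0.11 to 0.10), in Cl_1 tRNA-iMet-CAT-1 (-0.041 to 0.062), tRNA-iMet-CAT-2 (-0.093 to 0.26), tRNA-iMet-CAT-3 (-0.20 to 0.43) and tRNA-iMet-CAT-4 (-0.56 to 0.086), tRNA-Met-CAT-5 in Cl_2 (-0.50 to 0.19), tRNA-Met-CAT-6 in Cl_3 (-0.58 to 0.20) and tRNA-iMet-CAT-2 in 10X hearts (-0.60 to 0.092).

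Depth limits the trace entries: tRNA-Met-CAT-6, tRNA-Met-CAT-7 and tRNA-iMet-CAT-4 had at most 3 reads in a heart, where no difference was detectable. With library totals the median of all entries moved to 0.12 in Cl_2 and 0.14 in Cl_3, and entries called in the mean of the Cl lines split into 61 higher and 35 lower, beside 46 and 51 with TMM.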

Other observations

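The 11 entries named tRX with a methionine anticodon, which fall outside the members, held 2 to 13 counts per MEF library and 0 to 3 per heart in sum.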
